A study of Mus musculus with 8 samples.

Results

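Iron handling and hepcidin genes were followed in injured mouse liver. The 10 genes were Hamp, Hamp2, Bmp6, Tfr2, Trf, Tfrc, Slc40a1, Cp, Fth1 and Ftl1, out of 48286 genes present in both deposited tables, and they were picked by name, with rows matched between the tables by Ensembl identifier. All 8 livers came from WT C57BL/6J male mice aged 8 to 9 weeks, and each of the 4 groups held 2 livers taken 24 h after the dose. TAA (thioacetamide), a hepatotoxic compound, was given intraperitoneally at 200 mg/kg to fed mice, and fed controls received PBS alone (groups TAA and PBS). APAP (acetaminophen) was given into the stomach at 500 mg/kg after an overnight fast that was kept up for 6 h more, and the matching controls were fasted likewise and received PBS (groups Fasted_APAP and Fasted_PBS). The fast thus ended before the livers were taken at 24 h, and fasted livers below means livers of these groups. Agent, route and feeding therefore differ together between the models, and each treatment was first compared with its own controls.

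Hepcidin, the peptide encoded by Hamp, is made by hepatocytes and lowers the export of iron from cells by binding ferroportin (Slc40a1) and causing its degradation. Its transcription is driven by BMP6, which endothelial cells of the liver secrete and which acts through SMAD proteins, and by IL-6, which acts through STAT3. Ferritin, transferrin receptor and ferroportin are also set after transcription, by iron regulatory proteins that bind hairpins called iron-responsive elements in their mRNAs, so mRNA levels do not give the protein levels of these genes.

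The mouse carries a pair of hepcidin genes side by side on chromosome 7, and their promoters are shown because the values of the pair are set side by side throughout. Hamp lies at chr7:30942368-30944032 and Hamp2 at chr7:30922372-30924681, both on the minus strand of GRCm38. The aligned promoters were identical at 227 of 253 columns (89.7%), and the transcripts at 388 of 420 columns (92.4%). The RefSeq sequences (GRCm38.p6) of the 250 bases before each start site are printed 5′ to 3′, with capitals marking GGCGCC and TTCNNNGAA. GGCGCC is the core of the BMP-responsive element described in the human hepcidin promoter, and TTCNNNGAA is the general STAT pattern. The RefSeq start site of Hamp2 lies inside the gene span of GENCODE M21 given above. Each motif reads the same on both strands, and the matches do not overlap.
Hamp, chr7:30944030-30944279, minus strand: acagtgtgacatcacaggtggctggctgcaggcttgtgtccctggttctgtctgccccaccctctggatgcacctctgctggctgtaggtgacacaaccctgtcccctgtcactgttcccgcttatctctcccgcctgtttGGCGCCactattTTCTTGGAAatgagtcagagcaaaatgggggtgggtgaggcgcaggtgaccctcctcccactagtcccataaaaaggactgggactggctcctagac
Hamp2, chr7:30924182-30924431, minus strand: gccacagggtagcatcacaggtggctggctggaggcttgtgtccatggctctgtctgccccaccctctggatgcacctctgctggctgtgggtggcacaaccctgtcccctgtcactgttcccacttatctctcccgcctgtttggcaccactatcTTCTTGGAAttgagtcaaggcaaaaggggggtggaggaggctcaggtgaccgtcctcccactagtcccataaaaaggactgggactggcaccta

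In Hamp, GGCGCC began at -109 and the STAT pattern at -97 from the start site. In Hamp2 the STAT pattern began at -94, and the place of GGCGCC held the substitution G4A, with positions counted from 1 at the first base of the motif and the Hamp base given first. Of 32851 mouse promoters of this length, 9.59% held GGCGCC, 7.02% held TTCNNNGAA and 0.368% held both. Promoters were matched for 8 of the 10 genes, and outside the hepcidin genes the only match to either motif was a GGCGCC at -89 in one of the windows of Tfrc. A match of letters is a description and does not show a bound site.

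Iron-responsive elements are shown for the genes whose mRNAs carry them, with the apical loop in capitals. The transcripts (GENCODE M21, GRCm38) were searched for an unpaired C, 5 paired bases and the loop CAGTG followed by A, C or T. Such a match was found in 174 of 21291 coding transcripts (0.817%), and 7 matches fell in 4 of the 10 iron genes. In Slc40a1, Ftl1 and Fth1 the hairpin lies in the 5′ UTR, where a bound regulatory protein blocks translation. In Tfrc 4 matches lie in the 3′ UTR, where binding stabilizes the mRNA. A hairpin with another loop would not have been found by this search.
Slc40a1, chr1:45925465-45925493, minus strand: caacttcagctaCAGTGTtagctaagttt
Ftl1, chr7:45459779-45459807, minus strand: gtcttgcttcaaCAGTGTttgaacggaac
Fth1, chr19:9982732-9982760, plus strand: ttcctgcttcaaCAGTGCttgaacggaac
Tfrc, chr16:32631219-32631247, plus strand: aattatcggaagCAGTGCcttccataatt
Tfrc, chr16:32631598-32631626, plus strand: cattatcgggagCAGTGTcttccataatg
Tfrc, chr16:32631663-32631691, plus strand: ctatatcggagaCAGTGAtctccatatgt
Tfrc, chr16:32631710-32631738, plus strand: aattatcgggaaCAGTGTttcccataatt

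Libraries held between 22320118 and 41453751 counts in named genes, and replicates correlated at 0.983 to 0.992 (Pearson, log2 of CPM plus 1, across genes). Hepatocyte markers summed to between 55781 and 108360 CPM (counts scaled to the library total). They fell at 4 of 7 genes after APAP and were not called after TAA. Neutrophil markers rose at 4 of 6 tested genes after TAA (62.1 and 42.8 CPM in PBS, 118.1 and 98.7 CPM in TAA) and at 6 of 6 after APAP (2.25 and 3.09 CPM in Fasted_PBS, 22.6 and 24.3 CPM in Fasted_APAP). Monocyte and macrophage markers rose at 4 of 8 and at 4 of 7 tested genes. Of all genes tested, 12.1% rose and 13.8% fell after TAA, and 28.6% rose and 27.5% fell after APAP. Erythroid markers set TAA replicate 2 apart, with 1880 CPM against 261.7 to 552.2 CPM in the other livers of its table. These are bulk livers, so fewer cells of a type and less RNA per cell cannot be told apart. Nothing in the labels names litters or batches, and p values measure the spread between these livers.

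All 10 iron genes passed the filter on low counts in both comparisons. After TAA, 1 of the 10 was called (0 higher, 1 lower) at an adjusted p below 0.05 in edgeR's quasi-likelihood test with Benjamini-Hochberg adjustment, where 25.8% of the 16847 genes tested were called (12.1% higher, 13.8% lower). DESeq2 called 4 of the 10 (2 higher, 2 lower), where it called 2364 higher and 2776 lower of the same 16847 genes. After APAP, 9 of the 10 were called by edgeR (5 higher, 4 lower), where 56.2% of the 14794 genes tested were called (28.6% higher, 27.5% lower). The median log2 fold change of the iron genes was 0.11 after TAA, beside 0.03 over all genes tested, and 0.33 after APAP, beside 0.04 over all genes tested. Levels below are counts scaled to the library size after TMM normalization within each table (CPM).

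**Figure D1:**
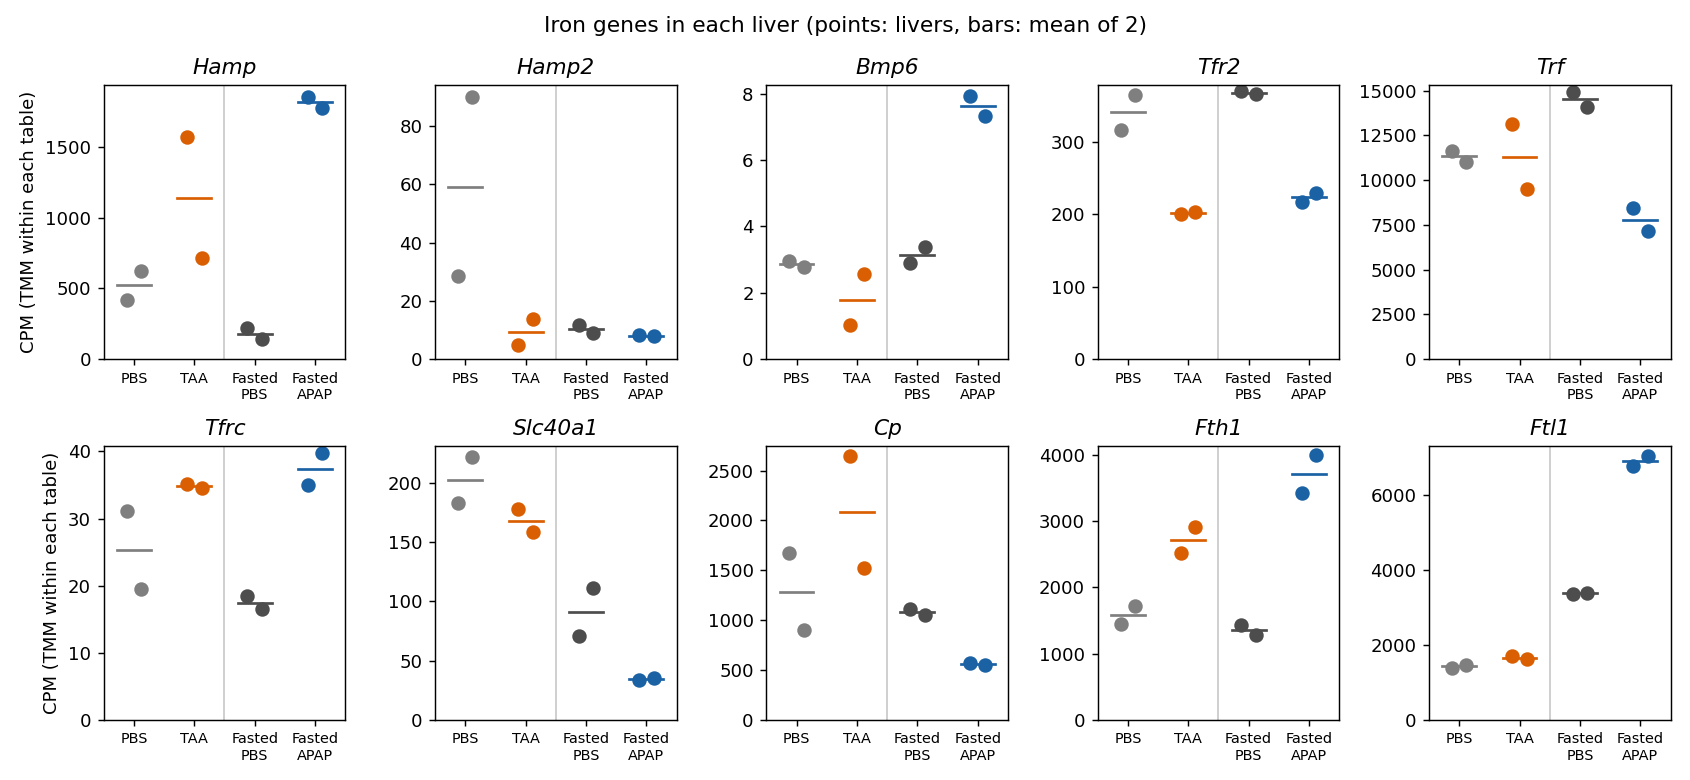
Level of each of the 10 iron genes in each liver, as CPM after TMM scaling within its table (vertical axis, from 0), by group (horizontal axis). Points are livers, short bars the mean of 2 livers, and the gray line separates the tables. Hamp stands at 1856 and 1781 CPM in the Fasted_APAP livers and at 219 and 141 CPM in their controls, while Hamp2 is highest in PBS replicate 2 (89.9 CPM).

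Hepcidin mRNA rose 10.1-fold after APAP. Hamp stood at 219 and 141 CPM in the Fasted_PBS livers and at 1856 and 1781 CPM in the Fasted_APAP livers. The groups did not overlap, and the livers of the treated group lay close together. The log2 fold change was 3.34 (SE 0.22, n = 2 per group, adjusted p = 8.1e-06 by edgeR's quasi-likelihood test), and it lay between 3.005 and 3.68 when each liver in turn was left out.

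After TAA the same gene did not pass the test. Hamp stood at 419.7 and 626.0 CPM in the PBS livers and at 1571 and 714 CPM in the TAA livers. Both treated livers were above both controls, but TAA replicate 2 lay near the upper control. The log2 fold change was 1.13 (SE 0.43, n = 2 per group, edgeR adjusted p = 0.109). TAA replicate 2 was the liver with the high erythroid markers. TAA replicate 1 stood higher at the haptoglobin gene Hp (8290 beside 4229 CPM), named here after its values were seen. Without TAA replicate 2 the log2 fold change of Hamp was 1.59, and without TAA replicate 1 it was 0.45. DESeq2 called it with all livers (adjusted p = 0.0232).

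Hamp2, which in the mouse lacks the iron-lowering action of Hamp when overexpressed, did not follow it. It stood at 28.6 and 89.9 CPM in the PBS livers and at 4.65 and 13.7 CPM in the TAA livers. The groups did not overlap, and PBS replicate 2 stood far above PBS replicate 1. The log2 fold change was -2.69 (SE 0.75, n = 2 per group, edgeR adjusted p = 0.0569). With 1 liver left out it ranged from -3.67 (without TAA replicate 2) to -1.65 (without PBS replicate 2) and was not called (edgeR adjusted p from 0.0563 to 0.327). With all livers it was called by DESeq2 (adjusted p = 0.0302) and by edgeR without robust estimation (adjusted p = 0.0478). In the APAP model Hamp2 stood at 11.9 and 8.87 CPM in controls and at 8.30 and 7.79 CPM after APAP, with a log2 fold change of -0.37 (SE 0.19, n = 2 per group, edgeR adjusted p = 0.118). Without Fasted_PBS replicate 2 that value was -0.61 and called (edgeR adjusted p = 0.0297), and without Fasted_PBS replicate 1 it was -0.16 (edgeR adjusted p = 0.615).

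Within each liver, the ratio of Hamp counts to Hamp2 counts set the treated livers apart from their controls. It was 14.7 and 6.96 in PBS, 337.8 and 52.3 in TAA, 18.4 and 15.8 in Fasted_PBS, and 223.5 and 228.5 in Fasted_APAP. A ratio within a library does not depend on how the library was scaled. Of the windows of 50 bases in the transcript of Hamp, 16.6% were shared with Hamp2, and 28.03% of those of Hamp2 were shared with Hamp or another annotated gene, so the split of reads between them is uncertain. Summed, the hepcidin genes had a log2 fold change of 3.27 after APAP and 0.98 after TAA (edgeR adjusted p = 0.151 for TAA).

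**Figure D2:**
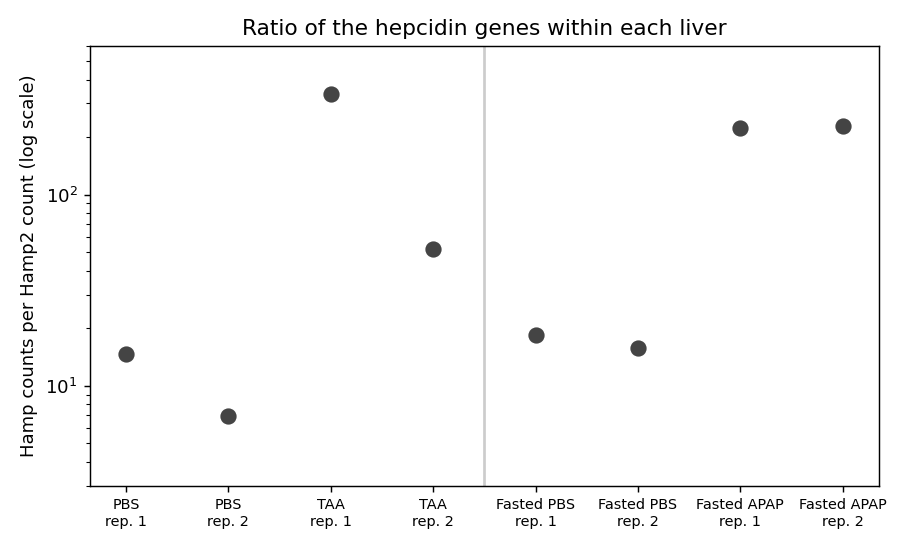
Hamp counts divided by Hamp2 counts in each liver (vertical axis, log scale, no unit), with the 8 livers along the horizontal axis and the gray line separating the tables. Points are single libraries and carry no error bar. The control livers sit between 6.96 and 18.4, and the treated livers between 52.3 and 337.8.

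Bmp6, the ligand that reports liver iron to hepatocytes, was expressed at a low level in whole liver. Of its 50-base windows, 4.94% are shared with the annotated gene Txndc5. Bmp6 held 40 to 200 counts per liver and Txndc5 held 3386 to 9127, and the effect of shared reads on Bmp6 was not tested. Bmp6 rose 2.44-fold after APAP, from 2.88 and 3.37 CPM to 7.93 and 7.34 CPM. The groups did not overlap, and the log2 fold change was 1.29 (SE 0.21, n = 2 per group, edgeR adjusted p = 6.4e-04). Sinusoidal endothelial markers, of the cells known as the source of Bmp6, rose at 1 and fell at 5 of 8 genes in that comparison. Of all genes tested there, 28.6% rose and 27.5% fell. The markers summed to 181.3 and 205.1 CPM in controls and to 161.5 and 186.7 CPM after APAP. After TAA, Bmp6 stood at 1.02 and 2.57 CPM beside 2.97 and 2.79 CPM in PBS livers, and it did not pass the test (log2 fold change -0.68, SE 0.49, n = 2 per group, edgeR adjusted p = 0.340). Both treated livers were below both controls, TAA replicate 2 only slightly, and the value was -1.49 without TAA replicate 2 and -0.17 without TAA replicate 1, not called in either.

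Tfr2, the receptor by which hepatocytes sense transferrin-bound iron, was the only iron gene called lower in both models. It fell from 370.3 and 365.9 CPM to 218 and 229 CPM after APAP, a log2 fold change of -0.72 (SE 0.11, n = 2 per group, edgeR adjusted p = 4.1e-04). After TAA it fell from 317 and 365 CPM to 201.02 and 203.32 CPM, a log2 fold change of -0.75 (SE 0.17, n = 2 per group, edgeR adjusted p = 0.0292). Neither pair of groups overlapped. The TAA call was lost in all 4 fits that left out 1 liver (edgeR adjusted p from 0.0622 to 0.184, log2 fold change from -0.87 to -0.64) and with library totals in place of TMM factors (-0.55, adjusted p = 0.0548).

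Trf encodes transferrin, the plasma iron carrier that hepatocytes secrete. It fell 1.86-fold after APAP, from 14922 and 14096 CPM to 8451 and 7130 CPM (log2 fold change -0.90, SE 0.14, n = 2 per group, edgeR adjusted p = 4.8e-04). Hepatocyte markers were also lower at 4 of 7 genes after APAP, beside 27.5% of all genes tested, and their part in the fall of Trf was not tested. After TAA it stood at 13125 and 9478 CPM beside 11636 and 10998 CPM in PBS livers, so the groups overlapped. The log2 fold change was -0.00 (SE 0.27, n = 2 per group, edgeR adjusted p = 0.996). Of the 50-base windows of Trf, 79.8% are shared with the annotated gene Gm20425, whose counts were 2.32% to 2.43% of those of Trf in the PBS and TAA livers.

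Tfrc, the receptor that takes up transferrin-bound iron, rose 2.13-fold after APAP. It stood at 18.5 and 16.4 CPM in controls and at 35.0 and 39.7 CPM after APAP, without overlap (log2 fold change 1.09, SE 0.13, n = 2 per group, edgeR adjusted p = 6.0e-05). After TAA it stood at 35.2 and 34.6 CPM beside 31.1 and 19.5 CPM, and the difference did not pass the test (log2 fold change 0.46, SE 0.24, n = 2 per group, edgeR adjusted p = 0.207). The treated livers lay close together and above both controls, which differed from each other by more than the treated livers did.

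Slc40a1 encodes ferroportin, the exporter that hepcidin binds, and in liver it is high in Kupffer cells. It fell 2.62-fold after APAP, from 70.7 and 111 CPM to 33.8 and 35.7 CPM (log2 fold change -1.39, SE 0.22, n = 2 per group, edgeR adjusted p = 0.0027). The groups did not overlap, and the controls differed from each other while the treated livers lay close together. Without Fasted_APAP replicate 1 the call was lost (-1.35, edgeR adjusted p = 0.0519). Kupffer cell markers summed to 71.3 and 165.9 CPM in the same control livers and to 76.3 and 57.6 CPM after APAP. They were called lower at 2 of 7 genes, beside 27.5% of all genes tested. Their median log2 fold change was -1.22, beside 0.04 over all genes tested, and their part in the result was not tested. After TAA, Slc40a1 stood at 178 and 158 CPM beside 183 and 222 CPM in PBS livers (log2 fold change -0.27, SE 0.18, n = 2 per group, edgeR adjusted p = 0.308). There 4 of 7 Kupffer cell markers were lower and 1 higher, beside 13.8% lower and 12.1% higher of all genes tested.

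Cp encodes ceruloplasmin, the plasma ferroxidase that loads exported iron onto transferrin. It fell 1.94-fold after APAP, from 1112 and 1048 CPM to 568 and 547.7 CPM (log2 fold change -0.95, SE 0.12, n = 2 per group, edgeR adjusted p = 1.0e-04). The groups did not overlap, and the call was lost in the fit of all 8 livers (-0.92, edgeR adjusted p = 0.0549). After TAA the groups overlapped, at 2644 and 1524 CPM beside 1672 and 900.0 CPM in PBS livers (log2 fold change 0.70, SE 0.41, n = 2 per group, edgeR adjusted p = 0.257). PBS replicate 2 and TAA replicate 2 were the lower livers of their groups.

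Fth1 encodes the ferritin heavy chain, which oxidizes iron for storage. It rose 2.75-fold after APAP, from 1426 and 1283 CPM to 3433 and 4006 CPM (log2 fold change 1.46, SE 0.14, n = 2 per group, edgeR adjusted p = 1.7e-05). After TAA it stood at 2520.5 and 2910.1 CPM beside 1449 and 1716 CPM in PBS livers, and it missed the threshold (log2 fold change 0.78, SE 0.23, n = 2 per group, edgeR adjusted p = 0.0560). Both treated livers lay above both controls. It passed the threshold with DESeq2 (adjusted p = 0.0013), with library totals (0.99, edgeR adjusted p = 0.0190) and in the fit of all 8 livers (edgeR adjusted p = 0.00997). It missed it without a filter (edgeR adjusted p = 0.0609), without robust estimation (0.0571) and with each liver left out (0.0574 to 0.283).

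Ftl1 encodes the ferritin light chain, the other subunit of the ferritin shell. It rose 2.05-fold after APAP, from 3355 and 3384 CPM to 6778 and 7029 CPM (log2 fold change 1.03, SE 0.13, n = 2 per group, edgeR adjusted p = 9.1e-05). After TAA it stood at 1694 and 1618 CPM beside 1386 and 1466 CPM in PBS livers, above both controls but not past the test (log2 fold change 0.22, SE 0.20, n = 2 per group, edgeR adjusted p = 0.459).

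The ferritin rows share sequence with processed pseudogenes. Of the 50-base windows of the Ftl1 transcript, 90.6% occur in at least 1 of 17 other annotated genes, and 6.59% of those of Fth1 occur in the annotated gene Gm6977. Rows named for ferritin light chain pseudogenes held 8.78% and 2.08% of the summed light chain counts in PBS livers and 7.55% and 9.65% in TAA livers. In the fasted livers they held between 0.089% and 0.124%. The pseudogene Ftl1-ps1 alone stood at 4042 and 553 counts in PBS livers and at 4363 and 5440 counts in TAA livers, so PBS replicate 2 stood apart. Summing these rows with Ftl1 gave 0.26 log2 in the TAA comparison and 1.04 log2 in the APAP comparison, and neither call changed.

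The ratio of Ftl1 counts to Fth1 counts was 0.956 and 0.854 in PBS, 0.672 and 0.556 in TAA, 2.35 and 2.64 in Fasted_PBS, and 1.97 and 1.75 in Fasted_APAP. It was lower in treated than in control livers of both tables and higher in all fasted livers than in all fed livers. The tables were also made separately, so feeding and table cannot be told apart.

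**Figure D3:**
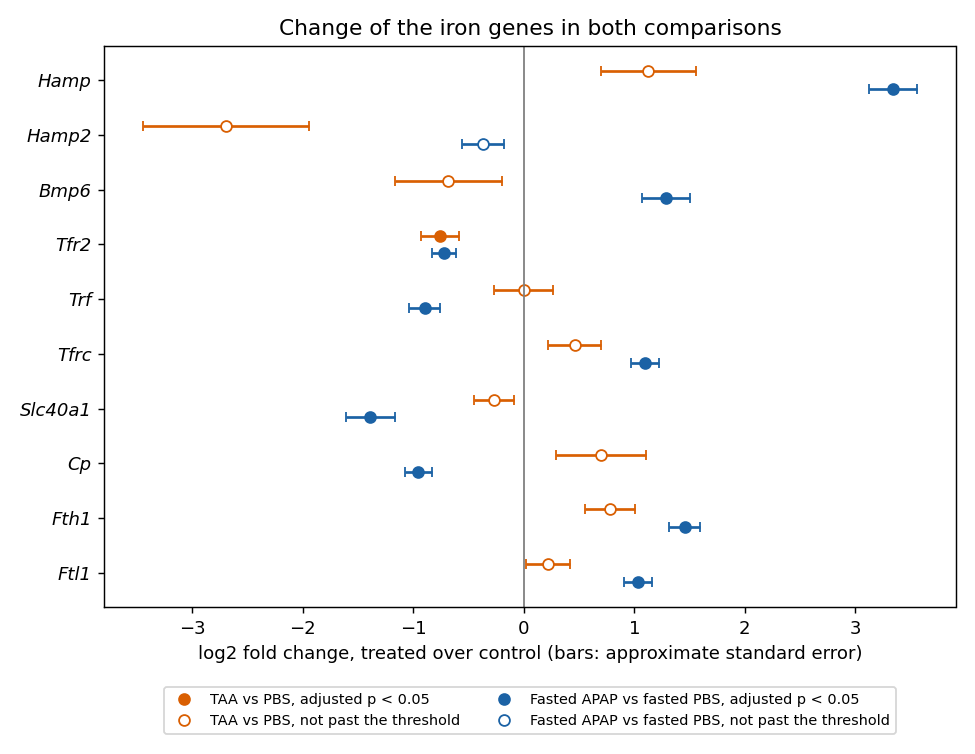
Log2 fold change of each of the 10 iron genes (horizontal axis) after TAA (orange) and after APAP (blue), each against its own controls, with n = 2 livers per group. Bars are approximate standard errors, and filled points passed an adjusted p of 0.05 by edgeR. After TAA only Tfr2 is filled (-0.75, a call lost when any liver is left out), and after APAP all genes except Hamp2 are filled.

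To ask whether the models differed, the TAA effect minus the APAP effect was tested with all 8 livers in one model of 17381 genes, of which 11% were called (4.63% higher, 6.37% lower). Of the iron genes 4 were called, each with a larger adjusted p than its APAP effect. The difference was -2.24 log2 for Hamp (SE 0.55, n = 2 per group, edgeR adjusted p = 0.0409), -2.002 for Bmp6 (SE 0.54, adjusted p = 0.0468), -0.85 for Ftl1 (SE 0.22, adjusted p = 0.0421) and 1.09 for Slc40a1 (SE 0.30, adjusted p = 0.0487). Hamp, Bmp6 and Ftl1 thus responded more positively to APAP than to TAA, and Slc40a1 more negatively. With 1 liver left out, the calls of Hamp, Bmp6 and Slc40a1 were each lost in 6 of 8 fits and that of Ftl1 in 8 of 8.

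Cp moved in opposite directions by its point estimates, and its difference of 1.62 log2 (SE 0.46, n = 2 per group) had an edgeR adjusted p of 0.0609. The remaining differences ranged from -2.36 log2 for Hamp2 to 0.86 for Trf, with edgeR adjusted p values from 0.102 to 0.907. For Tfr2 the difference was -0.06 log2 with an SE of 0.19 (n = 2 per group), the smallest of the 10.

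Levels of the control groups were compared in the same 8-liver fit, where 26.6% of 17381 genes were called (11.5% higher, 15.1% lower in Fasted_PBS). Of the iron genes, 1 was higher and 2 were lower in Fasted_PBS. Ftl1 was higher (log2 difference 1.51, edgeR adjusted p = 2.6e-04), and Hamp (-1.28, edgeR adjusted p = 0.0465) and Slc40a1 (-0.89, edgeR adjusted p = 0.0141) were lower. Kupffer cell markers were lower at 7 of 7 genes in the same comparison, and their part in the difference of Slc40a1 was not tested. Feeding and table cannot be told apart here.

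Over the 4 groups, scaled together, Hamp had its lowest mean in Fasted_PBS (196 ± 60.1 CPM, SD, n = 2), then PBS (475 ± 132, SD, n = 2), TAA (1041 ± 555, SD, n = 2) and Fasted_APAP (2034 ± 65.5, SD, n = 2). TAA was the group with the widest spread. Fasted_APAP also had the highest mean of Tfrc, Bmp6, Fth1 and Ftl1 and the lowest mean of Cp, Trf and Slc40a1. Tfr2 had its lowest mean in TAA (184 ± 1.06 CPM, SD, n = 2) and Hamp2 its highest in PBS (53.9 ± 39.4 CPM, SD, n = 2). In orders that cross the tables, feeding and table cannot be told apart. For Ftl1, the share of light chain counts in pseudogene rows also differed between the tables, as given above.

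The genes most like Hamp were sought among 7357 genes with a mean of at least 10 CPM in both tables, by the Pearson correlation of log2 levels centered on the control mean of each table over 8 livers. They were Tspan4 (r = 0.994), Rnf185 (r = 0.993), Ppp2r3c (r = 0.990), Abca1 (r = 0.990) and Lrif1 (r = 0.990), a description without a test, since the livers share groups and controls. Among the 8 other iron genes at this level (Bmp6 was below it) the correlation with Hamp was highest for Ftl1 (0.972) and Fth1 (0.930) and lowest for Slc40a1 (-0.915), while that of Hamp2 was -0.09.

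Among genes of the BMP-SMAD arm of hepcidin control, which include targets of the pathway, Id3 rose and Tmprss6 and Hjv fell in both models. Of 18 tested genes of the BMP-SMAD arm, 4 rose and 2 fell after TAA (median log2 fold change 0.11), beside 12.1% higher and 13.8% lower of all genes tested. Of 19 tested, 8 rose and 4 fell after APAP (median 0.29), beside 28.6% and 27.5% of all genes tested. Id1, a direct SMAD target, stood at 4.55 and 7.17 CPM in PBS livers and at 73.1 and 65.2 CPM in TAA livers (log2 fold change 3.56, edgeR adjusted p = 0.0028). Id3, another, rose by 1.78 log2 after TAA (edgeR adjusted p = 0.0031) and by 3.54 after APAP, from 14.7 and 15.98 CPM to 199.5 and 158 CPM (edgeR adjusted p = 1.1e-07). None of these groups overlapped.

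Tmprss6, the protease that restrains hepcidin by cleaving hemojuvelin, fell from 436 and 594 CPM to 182 and 231 CPM after TAA (log2 fold change -1.32, edgeR adjusted p = 0.0164). After APAP it fell from 404 and 426 CPM to 206 and 188 CPM (-1.07, edgeR adjusted p = 3.9e-05). Hjv, which encodes hemojuvelin, the BMP co-receptor, fell by 1.53 log2 after TAA and by 1.11 after APAP (edgeR adjusted p = 0.0037 and 6.0e-05). Hfe, a partner of the iron-sensing receptors, fell by 0.60 log2 after APAP (edgeR adjusted p = 0.0013).

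Some further genes of this arm are named after their values were seen. Id1 stood at 3.09 and 4.94 CPM in Fasted_PBS livers and at 44.5 and 41.8 CPM after APAP (log2 fold change 3.44). Smad7, an inhibitory SMAD and target of the pathway, rose by 1.89 log2 after APAP (edgeR adjusted p = 6.9e-06) and had a log2 fold change of 1.09 after TAA (edgeR adjusted p = 0.0604). Erfe, which encodes the erythroid hormone erythroferrone that lowers hepcidin, had 0 counts in both Fasted_PBS livers and 37.6 and 57.5 counts after APAP, at least 28.5-fold higher against a floor of 3 counts over the control group. Erythroid markers rose at 4 and fell at 1 of 5 tested genes in that comparison, beside 28.6% higher and 27.5% lower of all genes tested. They summed to 268.5 and 267.2 CPM in controls and to 465.3 and 410.8 CPM after APAP, and their part in the Erfe counts was not tested.

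In the cytokine arm, Socs3, Il1r1, Inhbb and Il1b rose in both models. Of 11 tested genes, 4 rose and 0 fell after TAA (median log2 fold change 0.63), and 7 rose and 1 fell after APAP (median 1.09). Of all genes tested, 12.1% rose and 13.8% fell after TAA, and 28.6% rose and 27.5% fell after APAP. Socs3, the STAT3 target that feeds back on cytokine signaling, stood at 30.5 and 24.7 CPM in PBS livers and at 187 and 162 CPM in TAA livers (log2 fold change 2.66, edgeR adjusted p = 0.0028). Il1r1, the IL-1 receptor, rose by 2.47 log2 after TAA and by 2.65 after APAP (edgeR adjusted p = 0.0056 and 4.8e-07). Inhbb, which encodes the subunit of activin B, rose from 1.93 and 2.87 CPM to 19.1 and 28.1 CPM after TAA (log2 fold change 3.30, edgeR adjusted p = 0.0039), and Il1b rose by 1.52 log2 (edgeR adjusted p = 0.0179). After APAP Socs3, Inhbb and Il1b, named there after their values were seen, rose by 3.13, 2.40 and 2.32 log2 (edgeR adjusted p = 4.0e-06, 4.6e-05 and 0.0041).

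After APAP, Stat3 rose by 1.09 log2, Creb3l3, a hepatocyte factor known to act on the hepcidin promoter, by 1.10 and Jak1 by 0.30 (edgeR adjusted p = 3.7e-05, 3.9e-05 and 0.0411). After TAA these genes were not called, with log2 fold changes of 0.63, -0.46 and 0.06, named there after their values were seen. Il6 itself was below the filter, with 0 and 2 counts in PBS, 26 and 8 counts in TAA, 0 and 0 in Fasted_PBS and 0 and 1 in Fasted_APAP. Il6ra, named after its values were seen, fell by 1.30 log2 after APAP (edgeR adjusted p = 2.1e-05). Neutrophil and macrophage markers rose in both comparisons, as given above, and their part in the cytokine genes was not tested.

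**Figure D4:**
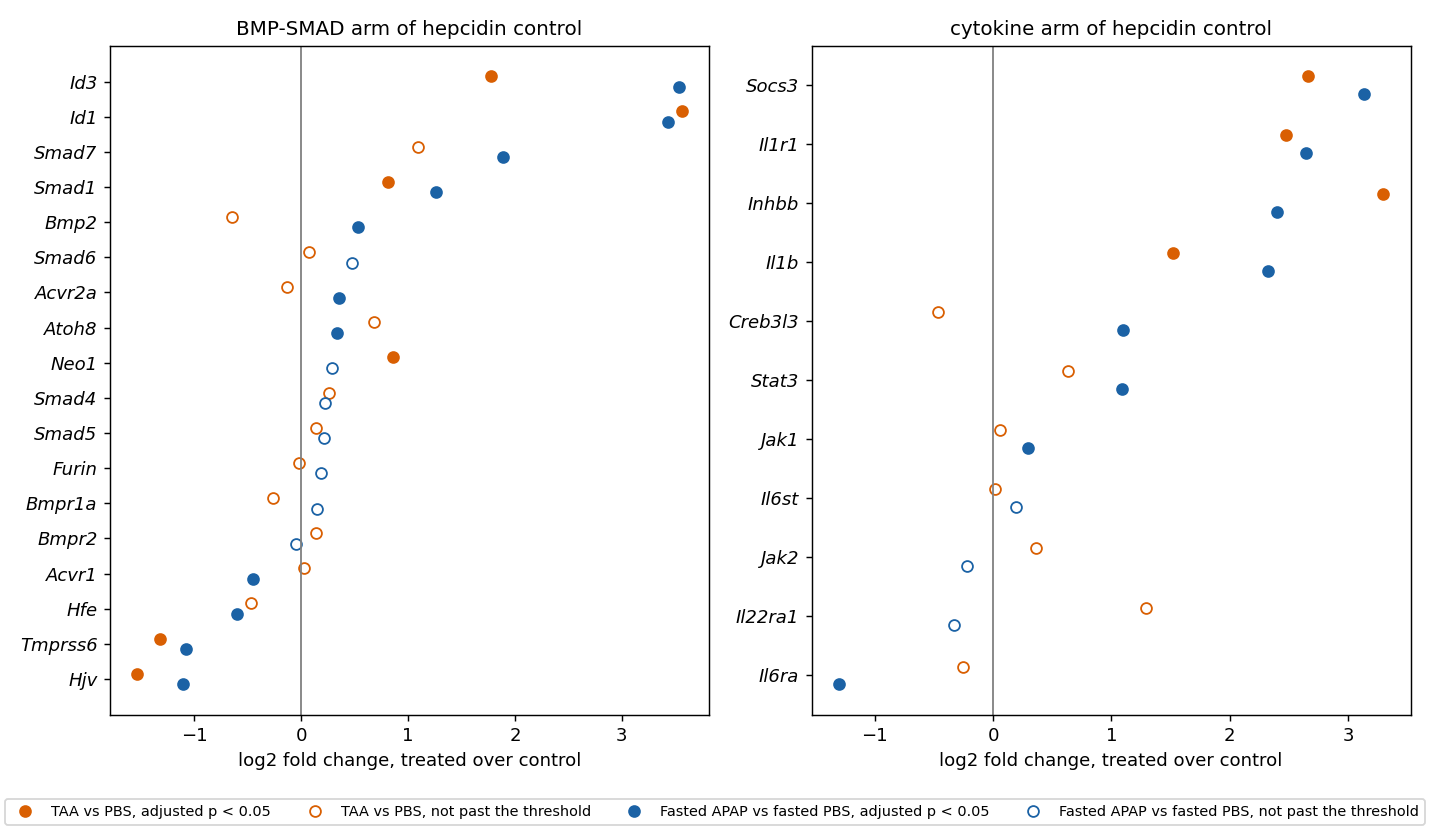
Log2 fold change (horizontal axis) of each tested gene of the BMP-SMAD arm (left) and the cytokine arm (right) of hepcidin control after TAA (orange) and after APAP (blue), each against its own controls with n = 2 livers per group. Filled points passed an adjusted p of 0.05 by edgeR, no error bars are drawn, and Erfe is left out because its controls held 0 counts. Id1 and Id3 lie to the right and Tmprss6 and Hjv to the left of 0 in both models.

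Among genes of iron and heme uptake and reduction, 4 rose and 3 fell of 15 tested after TAA (median log2 fold change 0.35), and 6 rose and 3 fell of 14 tested after APAP (median 0.27). The shares of all genes tested were 12.1% higher and 13.8% lower (TAA) and 28.6% higher and 27.5% lower (APAP). Slc39a14, the zinc and iron transporter that takes up iron not bound to transferrin, rose from 227 and 210.2 CPM to 421 and 353 CPM after TAA (log2 fold change 0.82, edgeR adjusted p = 0.0275). After APAP it rose from 206 and 213 CPM to 661 and 569 CPM (1.55, edgeR adjusted p = 5.8e-06). Lrp1, a receptor for heme bound to hemopexin, fell by 0.89 log2 after TAA and by 1.31 after APAP (edgeR adjusted p = 0.0368 and 2.0e-05).

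Lcn2 encodes a protein that binds iron carried by bacterial siderophores. After APAP it rose most of the genes named from this list, from 18.4 and 17.9 CPM to 981 and 916 CPM (log2 fold change 5.71, edgeR adjusted p = 1.6e-08). After TAA, where it is named after its values were seen, Lcn2 was not called (2.48, edgeR adjusted p = 0.185). It stood at 1863 and 834 CPM beside 448 and 34.6 CPM in PBS livers, so the controls differed widely. Hp, which encodes the hemoglobin-binding protein haptoglobin, rose by 0.78 log2 after APAP (edgeR adjusted p = 5.9e-04). Steap4, a metalloreductase, and Slc48a1, a heme transporter, rose by 1.42 and 1.22 log2 after TAA (edgeR adjusted p = 0.0275 and 0.0105). Both rose after APAP too, by 1.44 and 0.62 log2 (edgeR adjusted p = 6.3e-05 and 0.0035), and are named there after their values were seen. Steap3, the ferrireductase of endosomes, is named after its values were seen: it fell by 1.33 log2 after TAA and by 2.65 after APAP (edgeR adjusted p = 0.0091 and 9.0e-07), while Tfrc rose after APAP.

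Aco1 fell in both models among the regulators of iron-responsive elements, genes of ferritin turnover and ferroxidases. Of 8 tested, 0 rose and 1 fell after TAA (median log2 fold change -0.08), and of 9 tested, 2 rose and 2 fell after APAP (median -0.14). Over all genes tested these shares were 12.1% and 13.8% after TAA and 28.6% and 27.5% after APAP. Aco1, which encodes iron regulatory protein 1 and cytosolic aconitase, fell from 259 and 291 CPM to 145 and 176 CPM after TAA (log2 fold change -0.78, edgeR adjusted p = 0.0313). After APAP it fell from 225 and 215 CPM to 87.3 and 98.4 CPM (-1.24, edgeR adjusted p = 1.3e-05). Fbxl5, which targets the iron regulatory proteins for degradation, fell by 0.53 log2, and Pcbp1, an iron chaperone for ferritin, rose by 0.39 after APAP (edgeR adjusted p = 0.0050 and 0.0126). Hephl1, a ferroxidase, had 0 counts in both Fasted_PBS livers and 40 and 63 counts after APAP, at least 30.5-fold higher against the same floor.

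In the list of mitochondrial iron and iron-sulfur cluster assembly, 0 rose and 4 fell of 17 tested after TAA (median log2 fold change -0.28), and 4 rose and 9 fell of 17 after APAP (median -0.28). Among all genes tested 12.1% rose and 13.8% fell after TAA, and 28.6% rose and 27.5% fell after APAP. Fdx1, a ferredoxin, fell by 1.35 log2 after TAA and by 0.80 after APAP (edgeR adjusted p = 0.0114 and 9.6e-05). Abcb10, a mitochondrial transporter, and Nfs1, the desulfurase of cluster assembly, also fell after TAA, by 1.21 and 0.78 log2 (edgeR adjusted p = 0.0061 and 0.0179). Both fell after APAP too, by 2.85 and 0.58 log2 (edgeR adjusted p = 9.7e-07 and 0.0010), and are named there after their values were seen. After APAP, Glrx5 (1.30), Isca1 (0.74) and Hspa9 (0.37), which act in cluster transfer, were higher, with edgeR adjusted p values of 1.1e-05, 2.3e-04 and 0.0285.

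NRF2 is a known inducer of ferritin genes. Genes of its response and of heme breakdown rose at 4 and fell at 0 of 10 after TAA (median log2 fold change 0.44), and rose at 6 and fell at 1 of 10 after APAP (median 0.90). The background was 12.1% higher and 13.8% lower after TAA and 28.6% higher and 27.5% lower after APAP. Hmox1, the oxygenase that frees iron from heme, stood at 44.7 and 36.6 CPM in PBS livers and at 285 and 397 CPM in TAA livers (log2 fold change 3.07, edgeR adjusted p = 0.0030). After APAP it rose from 9.75 and 10.8 CPM to 325 and 289 CPM (4.90, edgeR adjusted p = 2.5e-08). Srxn1, a sulfiredoxin, rose by 2.74 log2 after TAA and by 4.53 after APAP (edgeR adjusted p = 0.0067 and 3.9e-08), and Txnrd1, a thioredoxin reductase, by 1.24 and 2.65 (edgeR adjusted p = 0.0233 and 2.5e-07). Gclc, of glutathione synthesis, rose by 1.36 after TAA (edgeR adjusted p = 0.0407), and Nfe2l2, which encodes NRF2, by 0.72 after APAP (edgeR adjusted p = 0.0011). Further values are named after they were seen. Gclm was not called in either model (-0.48 log2 after TAA and 0.22 after APAP). Nqo1 was not called after TAA (0.56) and rose by 1.97 after APAP, where Gclc was not called (0.42) and Blvra fell by 0.62. The part of NRF2 in the ferritin genes was not tested.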

How the data were processed

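Liver RNA of 8 mice was sequenced. Whole-number counts per gene were deposited for PBS and TAA livers (51826 genes), and estimated counts were deposited for the fasted livers (55416 genes, plus assembled loci that name no gene). The submitters' processing notes name Trim Galore, HISAT2, featureCounts and GRCm38 (mm10), and their versions, like the step that made fractional values, are not given in the sources used here. In the fasted livers 27.0% to 29.7% of nonzero estimated counts were not whole. Whole counts had been assumed in the design, and these values were rounded. The assembled loci, 0.457% and 0.498% of Fasted_PBS totals and 2.43% and 2.46% of Fasted_APAP totals, were left out. Columns of other samples numbered 0.

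Genes were kept by filterByExpr (minimum count 10, total 15), scaled by TMM factors, and tested with edgeR 4.0.16 (limma 3.58.1, R 4.3.3) by the robust quasi-likelihood test, with Benjamini-Hochberg adjustment over all genes tested and a threshold of 0.05. The SE is approximate, from the size of the log2 fold change over the root of its F statistic. Floors cover counting error only. The test was checked on simulated counts. Alternatives were DESeq2 1.42.0, library totals, no filter, estimated counts not rounded, no robust estimation, a fit of all 8 livers, a replicate block, each liver left out, and summed rows that share sequence. Summing each gene with every annotated gene that shares 50-base windows was chosen after seeing the data. Python 3.11.15 with matplotlib 3.10.9 drew the figures.

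The 10 iron genes and the gene lists were chosen with earlier results of these data known. All 10 are named in each comparison. From every other list the called genes of highest mean CPM are named, up to 4 per list and comparison, and 5 genes most like Hamp. Genes named beyond this rule are said to be so, and some within it are not reported here.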

Additional observations from a re-analysis of the deposited data

Results flagged for a closer look

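The effects of TAA and APAP on 4 iron genes passed the threshold in the test of the difference itself (TAA effect minus APAP effect, fit of all 8 livers, edgeR's quasi-likelihood test with Benjamini-Hochberg adjustment over 17381 genes). The log2 difference was -2.24 for Hamp (effects 1.13 and 3.34), -2.002 for Bmp6 (-0.68 and 1.29), -0.85 for Ftl1 (0.22 and 1.03) and 1.09 for Slc40a1 (-0.27 and -1.39). With 1 liver left out, the calls of Hamp, Bmp6 and Slc40a1 were lost in 6 of 8 fits each and that of Ftl1 in 8 of 8. With library totals Bmp6, Ftl1 and Slc40a1 were not called (edgeR adjusted p = 0.0512, 0.0505 and 0.0530). Agent, route, feeding and table differ together between the models and cannot be told apart.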

How the results depend on the processing

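After TAA, 0 iron genes were called higher and 1 lower. With library totals these were 1 and 0 (all genes 3029 and 1752), and with DESeq2 2 and 2 (all genes 2364 and 2776). Without robust estimation they were 0 and 2 (all genes 1991 and 2276), and in the fit of all 8 livers 1 and 2 (all genes 2872 and 3113). All genes called higher (2031) and lower (2317) ranged from 322 to 1498 and from 415 to 1869 with a liver left out, and the lowest counts came from leaving out either PBS liver (459 and 667 for replicate 1, 322 and 415 for replicate 2). After APAP the counts of iron genes were 5 and 4, and 5 and 3 to 5 with a liver left out. For the difference, the iron genes called were 4, 7 with DESeq2, 1 (Hamp) with library totals and 0 to 5 with a liver left out, and all genes called (1912) ranged from 697 to 2485, with 697 to 866 when a fasted liver was left out. Trf after TAA (-0.002) changed sign with library totals (0.21), in the fit of all 8 livers (4e-04), without PBS replicate 1 (0.03) and without TAA replicate 2 (0.22), was -0.26 without TAA replicate 1, and was not called in any. The difference of Tfr2 (-0.06) changed sign without PBS replicate 2 (0.10), TAA replicate 1 (0.01) or TAA replicate 2 (0.04), with -0.10 the lowest value with a liver left out, and was not called. Library totals raised the median of all genes by 0.20 log2 for TAA and 0.18 for APAP, and the share of calls that were higher from 46.7% to 63.4% and from 51.0% to 61.9%. Every called gene named in the text changed by more than this shift. Single iron genes were also counted under all alternatives, where a gene called in neither fit counts as unchanged. Of the APAP values 113 were unchanged in call and direction, 2 lost and 1 gained a call, and 0 changed sign. Of the TAA values these were 86, 5, 11 and 4, and only Tfr2 had a call to lose. Of the differences they were 66, 32, 9 and 3, and only Hamp, Bmp6, Ftl1 and Slc40a1 had a call to lose.

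No label names a shared batch for livers of the same replicate number. Deviations of same-numbered livers correlated at 0.067 over 16548 genes (PBS and TAA) and 0.061 over 14498 genes (fasted). A correlation over all genes cannot exclude a shared factor that acts on some of them. With the replicate block, 2 iron genes were called higher (Fth1, Cp) and 2 lower (Tfr2, Hamp2) after TAA, 5 and 4 after APAP, and 3 in the difference (Ftl1, Cp and Hamp2, while Hamp, Bmp6 and Slc40a1 were not called), with 1751 and 2118 of all genes called higher and lower after TAA and 4179 and 4032 after APAP.

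Fits that leave out a liver keep 1 liver in a group, which is assumed to vary like the other groups.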
